A study of Homo sapiens with 21 samples.

Results

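Lysosome and endosomal cholesterol genes were followed in xenograft tumors of A549-Luc2 cells, a luciferase-marked human lung adenocarcinoma line. The set holds 32 of the 60651 human genes counted, chosen by name for what their products do in the lysosome. No measured value entered the rule, though earlier results of these data were known when the choice was made. RNA-seq covered 21 subcutaneous tumors grown in female athymic nu/nu mice that were 6 to 8 weeks old at injection. Daily gavage delivered either Oxy186 (7 tumors) or Oxy210 (7 tumors) at 50 mg/kg, in a mixture of DMSO, ethanol, PEG400 and corn oil, or that mixture alone (Control, 7 tumors). All tumors share 1 cell line mixed with Matrigel, and their hosts lack mature T cells but keep macrophages, fibroblasts and vessels. The labels number the tumors of a group without saying that each came from its own mouse, so p-values measure only the spread between these samples. The study went on with Oxy186-treated samples r1-r4 because they stood apart in a principal component analysis of these same libraries, and left out r5-r7.

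The lysosome is the acid compartment in which cells break down protein, glycogen, glycolipid and the cholesteryl esters of lipoproteins taken up from outside. The proton pump of its membrane makes the acid that its hydrolases need. Free cholesterol released by the acid lipase LIPA is passed by the soluble carrier NPC2 to the membrane protein NPC1, which exports it, and STARD3 ties late endosomes to the endoplasmic reticulum for sterol transfer. Many genes of this kind are known targets of TFEB and TFE3, transcription factors that bind a palindrome called the CLEAR motif, with CACGTG at its core, and move to the nucleus when lysosomes are stressed. Their activity is set largely by phosphorylation, which mRNA levels do not show. Oxysterols such as Oxy186 and Oxy210 are cholesterol derivatives, and the question for these genes was whether either compound changed their mRNA.

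RefSeq promoters of 300 bases on GRCh38.p14 that run to just past the start RefSeq gives for the gene were matched by symbol for 23 of the 32 genes. The core CACGTG, the same on both strands, stood in 7 of these 23 promoters (ATP6V0D1, CTSA, CTSD, GAA, LAMP1, MCOLN1 and NEU1), against 7.26% of all 35116 promoters of the same length. The longer palindrome TCACGTGA, which contains the core, stood in 5 of them, against 0.980% of all promoters. RefSeq and GENCODE starts can differ, and the CTSD and CTSA windows lie wholly inside the loci that GENCODE 44 gives these genes. A match here is a description of the letters and not of binding. The promoters below are shown because GAA, MCOLN1 and CTSD are among the genes with a called difference described later, and LAMP1 because it had the most cores, 6 in 300 bases. Capitals mark each core with the bases beside it, up to 2 a side, that lengthen the palindrome.
GAA promoter, chr17:80101331-80101630, plus strand: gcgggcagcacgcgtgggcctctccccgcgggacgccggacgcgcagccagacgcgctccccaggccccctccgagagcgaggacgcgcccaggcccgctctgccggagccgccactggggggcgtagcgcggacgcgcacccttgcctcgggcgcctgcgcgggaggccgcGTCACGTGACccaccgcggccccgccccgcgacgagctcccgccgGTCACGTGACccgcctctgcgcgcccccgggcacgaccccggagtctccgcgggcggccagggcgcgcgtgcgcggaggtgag
MCOLN1 promoter, chr19:7522374-7522673, plus strand: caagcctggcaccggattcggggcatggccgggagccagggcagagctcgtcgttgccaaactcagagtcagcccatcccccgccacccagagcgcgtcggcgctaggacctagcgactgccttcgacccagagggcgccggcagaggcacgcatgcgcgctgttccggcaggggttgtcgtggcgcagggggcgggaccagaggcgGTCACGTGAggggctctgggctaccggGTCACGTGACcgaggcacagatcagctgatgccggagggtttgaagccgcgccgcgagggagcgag
CTSD promoter, chr11:1763878-1764177, minus strand: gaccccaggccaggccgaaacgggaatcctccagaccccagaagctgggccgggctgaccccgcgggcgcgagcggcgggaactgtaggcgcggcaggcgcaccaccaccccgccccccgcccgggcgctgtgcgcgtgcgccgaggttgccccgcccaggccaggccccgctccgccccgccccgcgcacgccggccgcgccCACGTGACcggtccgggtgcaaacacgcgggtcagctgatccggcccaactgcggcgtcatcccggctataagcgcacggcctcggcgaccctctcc
LAMP1 promoter, chr13:113296989-113297288, plus strand: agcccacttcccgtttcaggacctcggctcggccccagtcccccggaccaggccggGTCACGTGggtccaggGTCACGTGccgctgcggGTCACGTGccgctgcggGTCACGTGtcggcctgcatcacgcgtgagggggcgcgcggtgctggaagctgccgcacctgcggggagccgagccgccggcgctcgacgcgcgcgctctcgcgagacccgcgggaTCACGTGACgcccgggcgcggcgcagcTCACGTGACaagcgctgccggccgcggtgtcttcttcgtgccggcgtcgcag
The GAA and MCOLN1 promoters each held 2 cores, both within the longer palindrome. CTSD held a single core that was lengthened on 1 side only. For the other 3 genes only the stretch around the longest match is shown, to compare the flanks.
CTSA stretch, chr20:45891284-45891342, plus strand: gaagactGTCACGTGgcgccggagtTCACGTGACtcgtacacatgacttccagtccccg
ATP6V0D1 stretch, chr16:67481185-67481243, minus strand: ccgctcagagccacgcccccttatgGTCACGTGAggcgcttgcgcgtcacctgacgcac
NEU1 stretch, chr6:31862917-31862972, minus strand: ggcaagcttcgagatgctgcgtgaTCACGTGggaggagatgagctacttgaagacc

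All 32 genes were counted in every tumor, from 43 to 17403 reads, and all 32 passed each filter on low counts. Levels of different genes were compared as CPM (counts scaled to the size of the library) per kilobase of exon, with the exons of all annotated transcripts joined, which lowers the value of genes with long rarely used exons. On this scale PSAP, the precursor of the saposins that present sphingolipids to hydrolases, stood far above the rest with a control median of 321 CPM per kilobase (range 299.5 to 374 over 7 tumors). The cathepsin B gene CTSB followed at 32.3, the acid alpha-glucosidase gene GAA at 25.5 and NAGLU, which removes N-acetylglucosamine from heparan sulfate, at 23.8. Among the cholesterol genes NPC2 (19.9) and LIPA (18.9) were the higher, STARD3 stood at 10.7 and NPC1 at 3.41. MCOLN1, the lysosomal calcium channel, and TFEB were the lowest, at 2.67 and 1.14, while TFE3 stood at 20.1. The ranges of CTSB and GAA overlapped over control tumors (29.7 to 38.0 and 18.4 to 36.7), as did those of most neighbors in this order. PSAP did not overlap with any other gene, and the range of TFEB (0.629 to 1.42) lay below those of the other 31 genes.

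**Figure D1:**
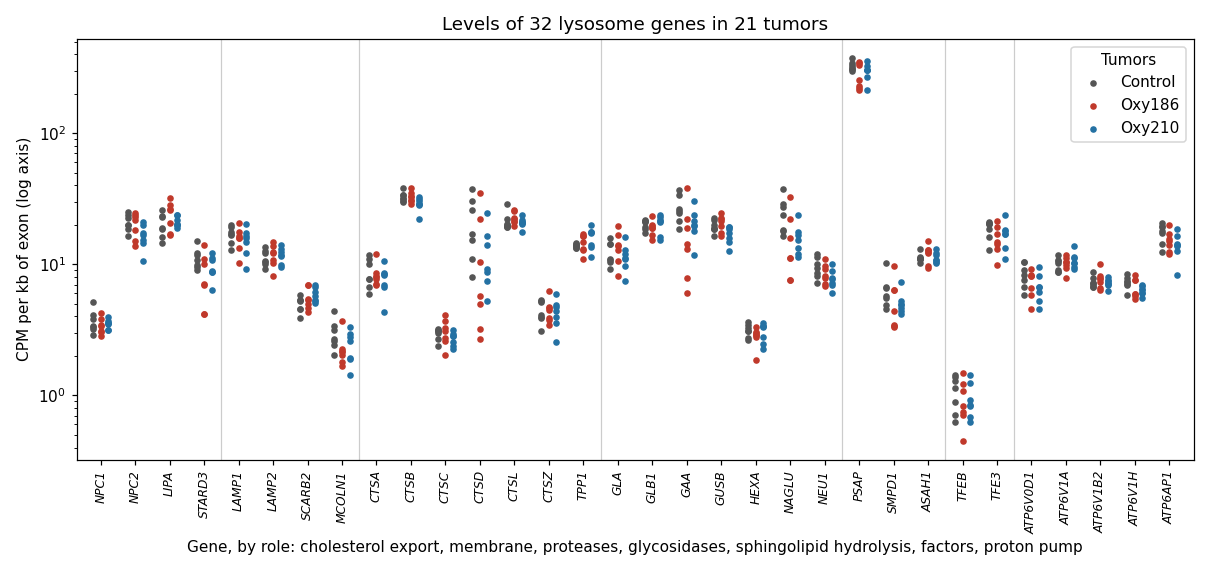
Levels of the 32 genes in the 21 tumors, in CPM per kilobase of exon on a log axis, with 1 point per tumor and the genes in order of their role. PSAP sits at 213 to 374 in every tumor, TFEB at 0.453 to 1.49, and CTSD, GAA and NAGLU show the widest vertical spread.

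The genes also differed in how steady they were among untreated tumors. On the log2 CPM scale (TMM-normalized, prior count 2) the SD over the 7 control tumors had a median of 0.24 over the 32 genes. It was smallest for TPP1, a lysosomal tripeptidyl peptidase, at 0.046, and above 0.4 in 3 genes, CTSD (0.81), TFEB (0.47) and NAGLU (0.44). The aspartic protease gene CTSD ran from 5.50 to 7.75 log2 CPM among controls alone, so differences in CTSD had to be large to stand clear of that spread.

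Total counts ran from 13787493 to 17865119 per tumor and overlapped between groups, and no pair of libraries in a group agreed within sampling noise. The libraries differed in their GC slope, which is how far a gene's log2 CPM departs from its average over the 21 tumors for each 10 points of exon GC percentage. It was -0.51 to -0.18 in r1-r4, 0.079 to 0.49 in r5-r7, -0.15 to 0.40 in Control and -0.33 to 0.26 in Oxy210. The simple epithelial markers that A549 cells should carry (KRT7, KRT8, KRT18, KRT19, EPCAM and CDH1) summed to 9061 to 14893 CPM in Control, 7918 to 13099.7 in r1-r4 and 6976 to 13407 in Oxy210. Macrophages express many of these lysosome genes, and reads aligned to the mouse genome were not counted, yet traces of host RNA could remain. Of 13 macrophage markers, 10 had a median of at most 3 counts, C1QA, C1QB and C1QC had none in any tumor, and the list summed to 5.02 to 24.3 CPM in Control, 8.82 to 14.6 in r1-r4 and 4.26 to 11.7 in Oxy210, most of it LYZ. The 8 fibroblast markers summed to 112 to 234 CPM in Control, 101 to 262 in r1-r4 and 77.4 to 157 in Oxy210, led by LUM, and the 7 endothelial markers to 1.88 to 6.78, 2.41 to 3.60 and 1.93 to 5.09. In bulk tumors, fewer cells of a type and less RNA per cell cannot be told apart.

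Over all 7 tumors a group, no lysosome gene passed the test between Oxy186-treated and control xenografts. The count at an adjusted p at or under 0.05 was 0 of 32 in DESeq2, in limma voom and in the quasi-likelihood test of edgeR. In edgeR, with p-values adjusted by Benjamini-Hochberg over 16291 genes, the background was 0.0% of all genes. Without adjustment 1 gene had a p under 0.05 (NAGLU), against 3.79% of all genes. Log2 fold changes of the 32 genes ran from -0.80 to 0.23 with a median of -0.11, against -0.0067 over all genes. Of the 32, 21 were below 0, beside 51.1% of all genes. The 95% intervals of 29 of the 32 genes lay within a doubling or halving, the exceptions being CTSD, GAA and NAGLU. When the edgeR fit took up the GC trend of every library as an offset, the count was still 0. Unadjusted p-values under 0.05 were then found in 6 of the 32 genes, against 5.91% of all genes. The lower ones were CTSD, GAA, NAGLU, STARD3 and ATP6V1H (15.6%, against 2.61% of all genes), and GUSB was higher (3.12%, against 3.3%).

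Of the 4 cholesterol genes, 3 had values below 0 and LIPA was above. NPC1 ran from 4.82 through a median of 5.05 to 5.65 log2 CPM in Control and from 4.79 through 5.05 to 5.36 in Oxy186, so the medians were level (log2 fold change -0.13, 95% interval -0.44 to 0.18). NPC2 had a control range of 5.42 to 6.03 with a median of 5.69 and an Oxy186 range of 5.16 to 5.99 with a median of 5.81 (log2 fold change -0.09, interval -0.38 to 0.21). Both overlapped Control in most tumors, with 1 Oxy186 tumor (NPC1) and 2 (NPC2) below the lowest control. LIPA ran from 6.16 through 6.54 to 6.98 in Control and from 6.35 through 6.98 to 7.28 in Oxy186 (log2 fold change 0.23, interval -0.13 to 0.59), with 4 of 7 Oxy186 tumors above the highest control. STARD3 ran from 5.72 through 5.98 to 6.47 in Control and from 4.62 through 5.37 to 6.36 in Oxy186 (log2 fold change -0.46, interval -0.96 to 0.037), with 4 of 7 below the lowest control. In both genes the other 3 Oxy186 tumors lay inside the control range.

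The same split within the Oxy186 group was seen in the hydrolases with the lowest values. NAGLU was at 5.03, 5.05, 4.47 and 4.49 log2 CPM in r1 to r4 and at 5.54, 6.58 and 6.03 in r5 to r7, against 5.59 to 6.78 in Control with a median of 6.13, so r5 also lay just below the lowest control. Its log2 fold change over the 7 tumors was -0.66 (standard error 0.30, interval -1.29 to -0.029, adjusted p = 0.862 from edgeR). GAA was at 6.24, 6.11, 5.00 and 5.37 in r1 to r4 and at 6.64, 7.64 and 6.87 in r5 to r7, against 6.60 to 7.59 in Control with a median of 7.07. Sample r6 lay above every control for GAA while r1-r4 lay below every control, and the SD over the Oxy186 tumors was 0.90 against 0.35 in Control. CTSD was at 4.82, 5.04, 4.19 and 3.96 in r1 to r4 and at 5.90, 7.63 and 6.98 in r5 to r7, against a control median of 6.61. Its log2 fold change over the 7 tumors was -0.80 with an interval of -1.89 to 0.28, the widest of the 32. The other 6 proteases ran from -0.07 to 0.06 and the other 5 glycosidases from -0.16 to 0.14, with intervals that all held 0.

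**Figure D2:**
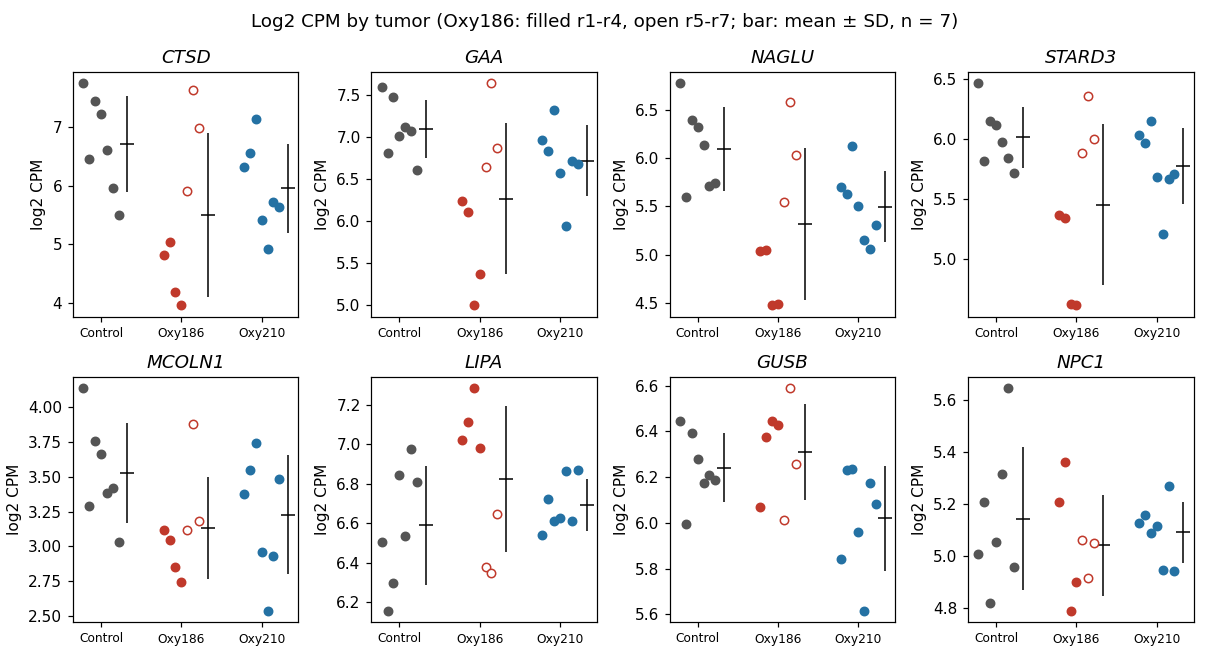
Log2 CPM of 8 genes by tumor, with 1 point per tumor and a bar for the mean ± SD (n = 7) of each group, where filled Oxy186 points are r1-r4 and open ones r5-r7. In CTSD, GAA, NAGLU and STARD3 the 4 filled points lie below every control and in LIPA above every control, while NPC1 overlaps in all groups.

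MCOLN1 had a control range of 3.03 to 4.13 log2 CPM with a median of 3.42 and an Oxy186 range of 2.75 to 3.88 with a median of 3.12 (log2 fold change -0.41, interval -0.82 to 0.0060). SCARB2, the receptor that carries glucocerebrosidase to the lysosome, had control values of 6.24 to 6.83 with a median of 6.68 and Oxy186 values of 6.39 to 7.09 with a median of 6.71 (0.13, interval -0.16 to 0.43). Neither gene separated the groups. PSAP ran from 9.87 through 9.97 to 10.19 in Control and from 9.39 through 9.63 to 10.09 in Oxy186 (-0.25, interval -0.55 to 0.046). SMPD1, the acid sphingomyelinase gene, ran from 3.65 through 4.0 to 4.81 and from 3.21 through 3.60 to 4.74 (-0.28, interval -0.80 to 0.25). Of the 7 Oxy186 tumors, 4 lay below the lowest control in each of these genes. They were r2 to r5 for PSAP, and r1, r3, r4 and r5 for SMPD1. TFEB (-0.21, interval -0.74 to 0.32) and TFE3 (-0.26, interval -0.61 to 0.082) were both below 0. TFEB values were 2.12 to 3.27 with a median of 2.96 in Control and 1.67 to 3.34 with a median of 2.52 in Oxy186, so the Oxy186 group spanned the whole control range. TFE3 values were 5.76 to 6.47 with a median of 6.41 and 5.37 to 6.48 with a median of 5.97. The 5 proton pump genes ran from -0.21 (ATP6AP1, an accessory subunit) to 0.05 (ATP6V1B2). ATP6AP1 was at 6.13 through 6.68 to 6.86 in Control and at 6.08 through 6.42 to 6.84 in Oxy186, with 6 of 7 treated tumors under the control median.

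Oxy210-treated xenografts gave the same count. Between Oxy210 and Control 0 of the 32 genes passed in DESeq2, in limma voom and in edgeR. In the same edgeR test over 16396 genes the smallest adjusted p of a lysosome gene was 0.259, and the background was 0.0%. Without adjustment 5 genes had a p under 0.05, against 13.8% of all genes. These were NPC2, CTSD, NAGLU and the neuraminidase gene NEU1, which were lower, and SCARB2, which was higher. Log2 fold changes ran from -0.75 to 0.27 with a median of -0.13, against 0.0086 over all genes, and 25 were below 0, beside 48.7% of all genes. With GC offsets the count was 0, with 7 genes at an unadjusted p under 0.05, against 14.4% of all genes. Markers of cell types were compared between these groups too, where 13.8% of all genes had an unadjusted p under 0.05. Of the 3 fibroblast markers that passed the filter on low counts, 2 were below 0 and 2 had an unadjusted p under 0.05 (median log2 fold change of the 3 -0.50). The 1 macrophage marker that passed it, LYZ, also had such a p (-0.90). The 2 endothelial markers that passed were below 0 (median -0.41), with 0 at such a p. Of the 6 simple epithelial markers, 5 were below 0 (median -0.16) and 1 had such a p. None of these markers passed after adjustment. The cells these reads came from were not tested, nor was the part of the markers in the values of the lysosome genes. The comparison shares its control tumors with the one for Oxy186, so the 2 sets of values are not independent.

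NAGLU had the smallest p for Oxy210. It ran from 5.06 through 5.50 to 6.13 log2 CPM in Oxy210-treated samples, and all 7 lay under the control median, the highest of them by less than the second decimal (log2 fold change -0.60, standard error 0.18, interval -0.97 to -0.22). The tumors spread over a smaller range than in the Oxy186 group (SD 0.37, against 0.79 for Oxy186 and 0.44 for Control), and 4 of 7 lay below the lowest control. NPC2 ran from 4.77 through 5.44 to 5.75, with 3 of 7 tumors below the lowest control (-0.33, interval -0.60 to -0.054). CTSD ran from 4.92 through 5.72 to 7.13 (-0.75, interval -1.44 to -0.056), with 2 of 7 below the lowest control. SCARB2 ran from 6.62 through 6.79 to 7.08, with 3 of 7 above the highest control (0.27, interval 0.024 to 0.51). The groups overlapped in each of these genes.

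No other cholesterol gene had an unadjusted p under 0.05 for Oxy210. NPC1 ran from 4.94 through 5.11 to 5.27 (log2 fold change -0.05, interval -0.31 to 0.20). LIPA ran from 6.54 through 6.63 to 6.87 (0.10, interval -0.16 to 0.37), and no tumor left the control range. STARD3 ran from 5.21 through 5.71 to 6.15 (-0.21, interval -0.49 to 0.065), with 4 of 7 tumors below the lowest control. GAA (-0.35), MCOLN1 (-0.27), SMPD1 (-0.29) and ATP6AP1 (-0.29) were below 0 with intervals that reached it, as were PSAP (-0.12), TFEB (-0.16), TFE3 (-0.12) and the beta-glucuronidase gene GUSB (-0.19). The extremes of their intervals were -0.70 (GAA) and 0.29 (TFEB).

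Oxy186 and Oxy210 were compared directly at their common dose, as 1 pair of compounds. No lysosome gene passed, with 0 of 32 in DESeq2, in limma voom and in edgeR. In the same edgeR test over 16361 genes the background was 0.0%. There 1 gene, GUSB, had an unadjusted p under 0.05, against 4.06% of all genes. GUSB ran from 6.01 through 6.38 to 6.59 log2 CPM in Oxy186 and from 5.62 through 6.08 to 6.24 in Oxy210, with Control between them at a median of 6.21 (log2 fold change Oxy186 over Oxy210 of 0.28, interval 0.025 to 0.53, adjusted p = 0.9996 from edgeR). The largest differences the other way were in GAA (-0.27, interval -0.94 to 0.39) and STARD3 (-0.23, interval -0.73 to 0.28). Over the 32 genes the values ran from -0.27 to 0.28, with 15 below 0, beside 51.5% of all genes, and 17 above 0. Of the intervals, 31 lay within a doubling or halving. CTSD was the exception, with an interval of -1.10 to 1.04 around -0.03. For NPC1 the difference was -0.05 (interval -0.29 to 0.18) and for LIPA 0.15 (interval -0.16 to 0.47). With GC offsets no lysosome gene passed, against 0.00611% of all genes, and 2 (GUSB and STARD3) had an unadjusted p under 0.05, against 8.12%. These intervals bound the difference between the compounds and do not show that they acted alike.

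**Figure D3:**
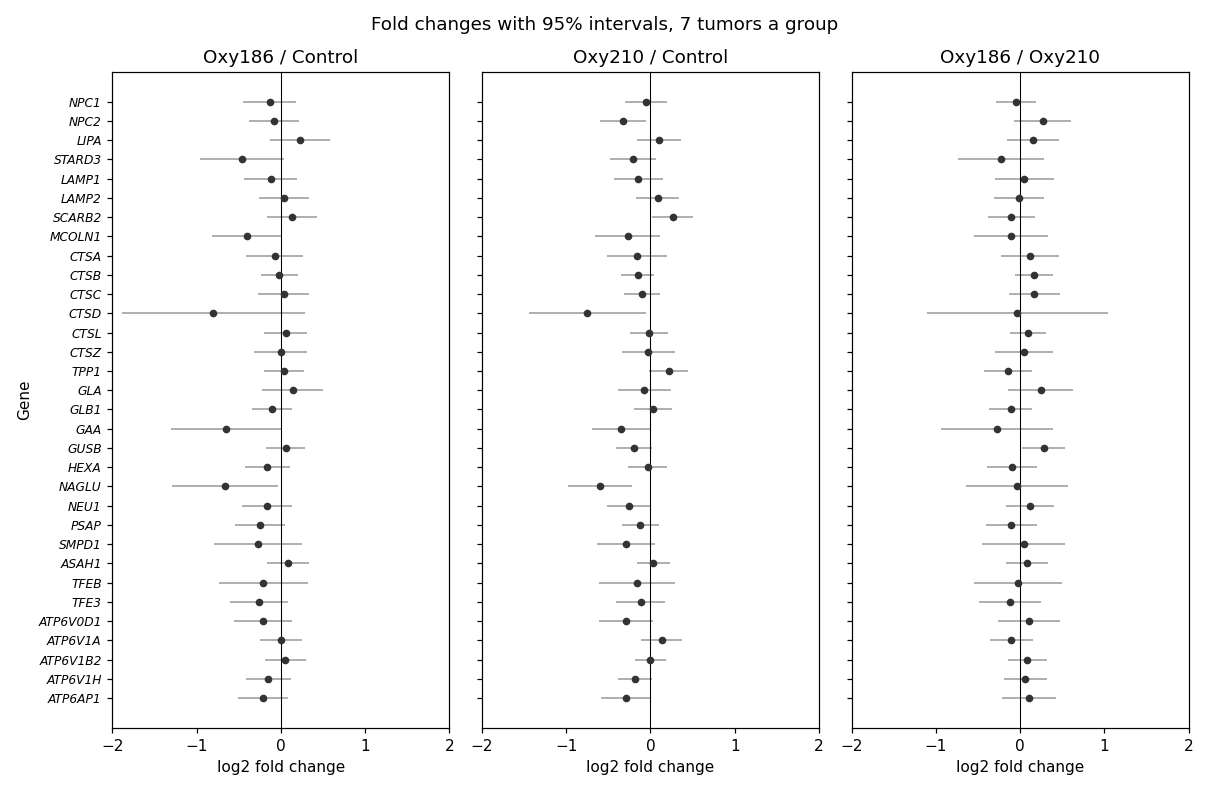
Log2 fold changes (points) with 95% intervals (lines) of the 32 genes in the 3 comparisons of 7 against 7 tumors, from edgeR. Most intervals cross 0, and CTSD has the widest interval in each panel (-1.89 to 0.28 for Oxy186 over Control).

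Among the 23 genes with a matched promoter, the 7 with a CACGTG core were all below 0 in Oxy186 against Control (median -0.21) and all below 0 in Oxy210 against Control (median -0.27). Of the 16 without it, 9 and 12 were below 0 (medians -0.044 and -0.090). The exons of the 7 genes also had the higher median GC content, 56.4% against 49.9%. With GC offsets, 5 of the 7 were below 0 for Oxy186 (median -0.053) and all 7 for Oxy210 (median -0.10), against 7 and 9 of the 16 without the core. The difference between these groups of genes was not tested.

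In Oxy186-treated samples r1-r4 against the 7 controls, 6 of the 32 genes (18.8%) passed, beside 19.7% of all 16852 genes. Since r1-r4 were chosen for standing apart in these libraries, their p-values describe that choice and are not evidence that Oxy186 acted. The fall was in CTSD (-2.33 ± 0.39 on the log2 scale, fold change ± standard error, edgeR adjusted p = 0.00146), NAGLU (-1.37), GAA (-1.37), STARD3 (-1.01) and MCOLN1 (-0.63, adjusted p = 0.0424). LIPA rose (0.48 ± 0.15, adjusted p = 0.0366 in edgeR), 1 gene beside 4.73% of all genes. The 5 lower genes are 15.6% of the set, beside 15.0% of all genes, and the 4 with a fold change over 2 are 12.5%, beside 8.34%. Every one of r1-r4 lay below every control in 4 genes (CTSD, GAA, NAGLU and STARD3), beside 8.41% of all genes, and above every control in 2 (LIPA and TPP1), beside 3.23%.

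By role, the called genes were 2 of 7 glycosidases, 1 of 7 proteases, 2 of 4 cholesterol genes in opposite directions, and 1 of 4 membrane genes. None of the 3 sphingolipid genes, the 2 factors or the 5 pump genes passed in edgeR. Adjusted p-values of 0.0614 to 0.0939 in edgeR were found for PSAP (-0.40, interval -0.71 to -0.091), SMPD1 (-0.62, interval -1.13 to -0.11), TFEB (-0.64, interval -1.19 to -0.086) and TFE3 (-0.46, interval -0.82 to -0.11). Calls near the threshold depended on the method. PSAP was called in limma voom (adjusted p = 0.0427) and in DESeq2 (adjusted p = 0.0416), and MCOLN1 was not called in limma voom (adjusted p = 0.0546). STARD3 was at 5.37, 5.34, 4.63 and 4.62 log2 CPM in r1 to r4, and at 5.88, 6.36 and 6.00 in r5 to r7. MCOLN1 was at 3.12, 3.04, 2.85 and 2.75, and at 3.12, 3.88 and 3.18 in r5 to r7, so r5 was level with r1. LIPA was at 7.02, 7.11, 7.28 and 6.98, and at 6.38, 6.35 and 6.65 in r5 to r7. The highest control LIPA value was 6.98, so r4 lay above it by less than the second decimal. LIPA and MCOLN1 were no longer called when any 1 of r1-r4 was left out, with adjusted p-values from edgeR of 0.0523 to 0.119 for LIPA and 0.0527 to 0.138 for MCOLN1. CTSD, GAA, NAGLU and STARD3 stayed called each time. Without r1 PSAP gained a call (adjusted p = 0.0121 from edgeR), and without r2 SMPD1 (0.0163) and TFE3 (0.0315) gained one. NPC1 was at 5.21, 5.36, 4.79 and 4.90 and NPC2 at 5.16, 5.56, 5.89 and 5.29, both overlapping Control, with log2 fold changes of -0.09 (interval -0.44 to 0.26) and -0.26 (interval -0.59 to 0.068).

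The order of the 32 genes in this comparison followed the GC content of their exons. Pearson's r between log2 fold change and GC content was -0.79 across these 32 genes and -0.71 across all tested genes, a description of genes that share the same libraries. GC content of the set ran from 36.0% (LAMP2) to 64.0% (GAA) with a median of 52.2%, against 47.6% for all tested genes. The 12 genes with a GC content of 55.5% to 76.0% had a median log2 fold change of -0.63, and all genes in that range -0.75. The 5 at 22.8% to 41.8% had 0.16, and all genes in that range 0.26. GAA, CTSD and NAGLU, at 63.9% to 64.0%, were the 3 most GC-rich genes of the set.

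**Figure D4:**
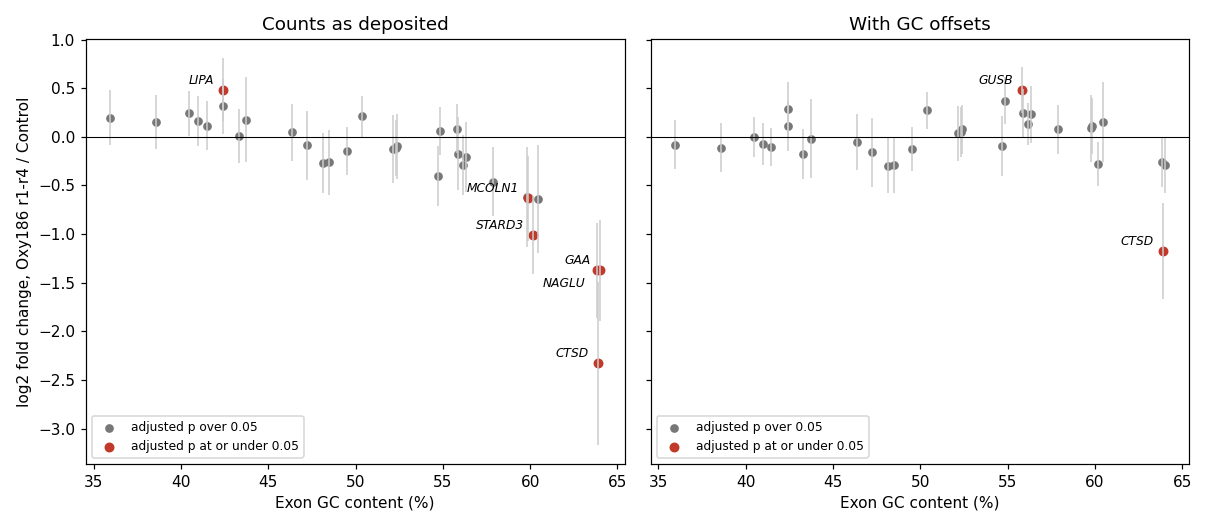
Log2 fold change of Oxy186 r1-r4 over Control against exon GC content (%) for the 32 genes, with 95% intervals, from the counts as deposited (left) and with the GC offsets (right). On the left the points fall as GC content rises, down to CTSD at -2.33, and on the right CTSD (-1.17) is the only gene below -0.30.

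The GC slopes of r1-r4 (-0.51 to -0.18) all lay below those of Control (-0.15 to 0.40). A GC trend of the libraries and a change in r1-r4 that follows GC content therefore cannot be told apart. GC offsets are fitted to this trend and take out both, so a smaller r was built in. With GC offsets in the edgeR fit, r fell in size to -0.13 over the 32 genes. Of the 32 genes, 2 passed (6.25%), beside 4.05% of all genes (2.26% lower and 1.79% higher). CTSD was lower (-1.17 ± 0.23, interval -1.66 to -0.68, edgeR adjusted p = 0.0116) and GUSB was higher (0.48 ± 0.11, interval 0.25 to 0.72, edgeR adjusted p = 0.0255). GUSB was not called from the counts as deposited (0.08, adjusted p = 0.649 in edgeR), nor with the replicate block and GC offsets together (0.53, adjusted p = 0.166). With the trend removed CTSD was at 5.49, 5.50, 5.29 and 5.02 log2 CPM in r1 to r4, at 5.66, 6.75 and 6.63 in r5 to r7 and at 5.72 to 6.98 in Control, so r1-r4 still lay below every control. GUSB was then at 6.30, 6.51, 6.84 and 6.80 in r1 to r4, at 5.97, 6.15 and 6.10 in r5 to r7 and at 5.97 to 6.32 in Control, so r2, r3 and r4 lay above every control and r1 inside their range. GAA (-0.29), NAGLU (-0.26), STARD3 (-0.28) and LIPA (0.28) kept their direction and were no longer called (adjusted p of 0.162 to 0.272), and MCOLN1 turned to 0.11. In the 7 genes with a CACGTG core, 5 were then above 0, where all 7 had been below 0 from the counts as deposited.

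The CTSD locus limits what its counts can say. CTSD lies on chr11:1752752-1764573 (minus strand, GENCODE 44 on GRCh38), and 27.3% of its exon bases are shared with other genes on its strand and 23.4% with genes on the other strand. Whether the counting used strand is not given in the sources used here, and reads falling on several genes may go uncounted. The overlapping genes themselves held few reads, at most 25 in any tumor for AC068580.4, 14 for AC068580.3 and 0 for AC068580.1. Reads on shared bases may be missing from these counts too, so low counts do not show that few reads were lost. CTSZ shares a larger part of its exon bases with a gene on the other strand than CTSD does. That gene, NELFCD, held at most 1 count in any tumor, and whether this came from the counting was not tested. NAGLU (chr17:42536241-42544449, plus strand) shares 12.9% of its exon bases with a same-strand gene at 0 counts in every tumor. GAA (chr17:80101533-80119881, plus strand), STARD3 (chr17:39637090-39664201, plus strand) and GUSB (chr7:65960684-65982215, minus strand) share none.

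**Figure D5:**
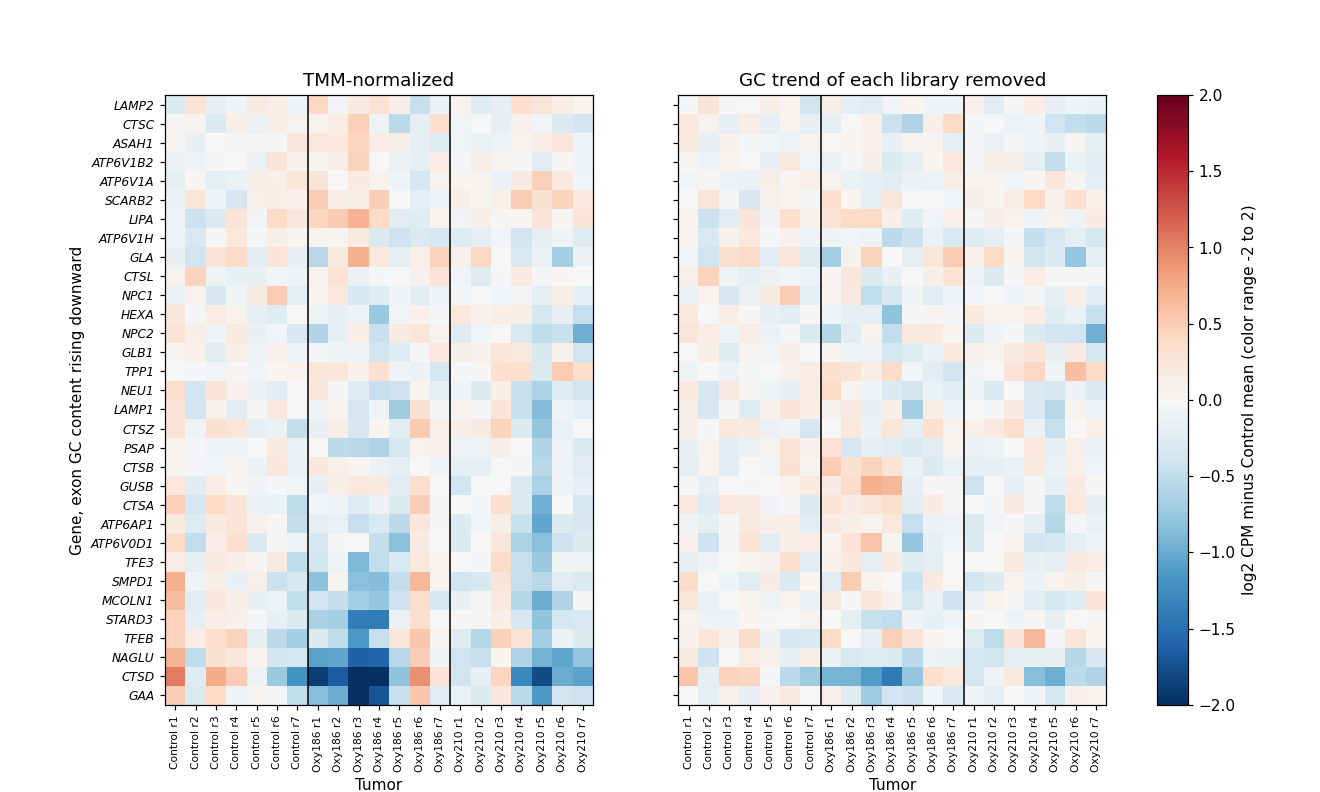
Log2 CPM of the 32 genes minus the control mean (color, from -2 to 2) in each of the 21 tumors, with genes ordered by exon GC content from 36.0% at the top to 64.0% at the bottom, TMM-normalized on the left and with the GC trend of each library removed on the right. The lowest rows are blue in r1-r4 on the left and, other than CTSD, much paler on the right.

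Other genes of the pathway, from lists of 104 lysosomal hydrolases, membrane and sorting genes, pump subunits and TFE control and autophagy genes outside the set, gave like counts. None of the 99 tested passed in Oxy186 against Control, 0 of 100 in Oxy210 against Control and 0 of 100 between the compounds (edgeR), with 4, 10 and 5 genes at an unadjusted p under 0.05, against 3.79%, 13.8% and 4.06% of all genes. With GC offsets these were 7, 16 and 7 genes, against 5.91%, 14.4% and 8.12%. In r1-r4 against Control 19 were lower and 5 higher of 99, against 15.0% and 4.73% of all genes, and with GC offsets 3 were lower and 1 higher, against 2.26% and 1.79%. ATP6V0B, a subunit of the proton pump's membrane sector, was at 4.97, 5.28, 4.59 and 4.28 log2 CPM in r1 to r4 and at 5.74 to 6.49 in Control. It was lower from the counts as deposited (log2 fold change -1.25) and with GC offsets (-0.83, adjusted p = 0.00329 from edgeR). Of the 16 other pump subunits tested, 4 were lower and 3 higher in r1-r4 from the counts as deposited, and 1 was lower and 0 higher with GC offsets. PLA2G15, the lysosomal phospholipase, was also lower both ways (-1.24 and -0.68). LAMTOR3 (0.53) and the pump subunit gene ATP6V1C1 (0.40) were the called increases with the smallest adjusted p, and with GC offsets the autophagy gene MAP1LC3B was higher (0.43, adjusted p = 0.0396 from edgeR). In the comparisons of 7 against 7, RRAGA, a GTPase of the lysosomal nutrient sensor, had the smallest p among the lower genes for both compounds (-0.31 for Oxy186 and -0.45 for Oxy210, adjusted p of 0.862 and 0.204), and CD63 had the smallest between Oxy186 and Oxy210 (0.44, interval 0.19 to 0.69, adjusted p = 0.860).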

How the data were processed

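RNA-seq was done on 21 A549-Luc2 xenografts. The authors trimmed reads with Trimmomatic 0.39, aligned them to a combined human (GRCh38.p13) and mouse (GRCm39) genome with STAR 2.7.6a and counted human genes with featureCounts (Subread 2.0.1), per the labels and the study's methods. They deposited raw counts, and log2 CPM values for Control and Oxy186 r1-r4 after filterByExpr and TMM in edgeR. Log2 CPM recomputed here lay within 1e-10 of each deposited value over 16852 genes.

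The 32 genes, their roles, the other lists and the tests were chosen with earlier results of these data known. Raw counts of all genes were tested with edgeR 4.0.16 (R 4.3.3): filterByExpr, TMM, quasi-likelihood test and Benjamini-Hochberg adjustment over all genes, called at an adjusted p at or under 0.05. The study used limma voom and a fold change over 2. The script was tested on simulated data. Alternatives were limma voom 3.58.1, DESeq2 1.42.0, other filters and normalizations, 1 fit of all libraries, GC offsets (a spline with 4 degrees of freedom per library fitted to genes averaging 1 log2 CPM or more), a replicate block, and leaving out each of r1-r4. Exon GC content, positions and lengths came from GENCODE 44 and promoters from RefSeq. The study's reference came from an earlier GENCODE release, so exon lengths and overlaps may differ from those used in counting. Genes named with their values were the 4 cholesterol genes, both factors, MCOLN1, called genes and, in each role, the gene with the smallest p against Control. Tumor growth and RT-qPCR were not analysed here.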

Additional observations from a re-analysis of the deposited data

Results flagged for a closer look

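In 6 of 96 groups of 7 tumors (32 genes in 3 groups) 1 tumor stood apart from the other 6 on the log2 CPM scale by Dixon's criterion, which chance alone would give in about 5. Oxy186 replicate 6 was high in MCOLN1 (3.88, the others 2.75 to 3.18) and in CTSA (6.69, the others 5.91 to 6.22). Oxy186 replicate 4 was low in HEXA, at 4.88 against 5.47 to 5.72. Oxy210 replicate 5 was low in CTSB (7.88, the others 8.22 to 8.43), and Oxy210 replicate 3 was high in SMPD1 (4.34, the others 3.52 to 3.86). Control replicate 2 was high in CTSL, at 7.47 against 6.87 to 7.09. The library of Oxy186 replicate 6 had the highest GC slope of the 21, 0.49, and Oxy210 replicate 5 the lowest of its group, -0.33, and the part of this in the values was not tested.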

How the results depend on the processing

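The count of 0 called genes held in the 3 comparisons of 7 against 7 tumors under every alternative run. For r1-r4 against Control the count of 6 became 2 with GC offsets and 1 with the replicate block and GC offsets, and was 4 to 9 under the others. It was 4 to 6 when 1 of r1-r4 was left out. The share of all genes called is given only for the main fit (19.7%) and GC offsets (4.05%). Counts under the other alternatives therefore cannot be set against it. The median log2 fold change of the 32 genes, -0.12, became -0.0095 with GC offsets. CTSD was called under every alternative run, and GUSB with GC offsets only.

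Tumors with the same replicate number share only a number. Their deviations correlated above 0.1 in 0 of 7 pairs of Control and Oxy186, 3 of 7 of Control and Oxy210 and 1 of 7 of Oxy186 and Oxy210, and 0, 1 and 0 correlated best with their own number. With the replicate block 6 genes were called for r1-r4, where LIPA lost its call (adjusted p = 0.0568 from edgeR) and TFEB gained one (0.0329).

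Sign changes under the alternatives were counted only for the genes named with their values. Other lysosome genes turned sign too, such as ATP6V0D1 (from -0.21 to 0.23) and LAMP2 (from 0.20 to -0.081) with GC offsets in r1-r4. For the named genes log2 fold changes turned sign in 29 cases, among them MCOLN1 for r1-r4, which was called at -0.63. With GC offsets, and with the replicate block and GC offsets, they were for Oxy186 against Control TFEB (0.13 and 0.14) and SMPD1 (0.020 and 0.012), for Oxy210 against Control TFEB (0.069 and 0.056) and TFE3 (0.021 and 0.023), and for Oxy186 against Oxy210 TFEB (0.061 and 0.084), MCOLN1 (0.025 and 0.029) and NAGLU (0.052 and 0.054). For r1-r4 they were TFE3 (0.075 and 0.12), MCOLN1 (0.11 and 0.072), SMPD1 (0.087 and 0.063) and ATP6AP1 (0.13 and 0.15), with TFEB (0.15) under GC offsets alone and PSAP (0.0047) under the replicate block with GC offsets alone. SMPD1 between the compounds turned to -0.057 with limma voom, -0.012 with library size alone and -0.043 with the replicate block. NPC1 for r1-r4 turned to 0.038 with the replicate block and, when 1 of r1-r4 was left out, ran from -0.19 to 0.011 (without Oxy186 replicate 4). The cause was not tested. Groups of 7 tumors a group with control SDs up to 0.81 limit these comparisons, and the median half-width of a gene's 95% interval was 0.26 to 0.31 on the log2 scale.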
